A study of Mus musculus with 6 samples.

Results

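The genes described here encode chemokine ligands, the secreted or membrane-anchored proteins that guide leukocytes through tissue, measured in the colon of mice without epithelial Hnf4α and of their controls. All genes whose symbol is Ccl, Cxcl, Xcl or Cx3cl followed by a number were taken where a probe set of the array names that gene alone, and each gene was represented by its probe set with the highest mean over the 6 arrays. This gave 33 genes (18 Ccl, 13 Cxcl, Xcl1 and Cx3cl1) of 18193 genes with such a probe set. The 33 genes have 51 probe sets, 13 genes having several and 20 having 1. Another 4 probe sets name a ligand gene among several symbols, those of the Ccl19, Ccl21 and Ccl27 gene clusters, and were outside the rule. Pf4 and Ppbp, chemokines under other symbols, were outside it too.

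Total RNA of the colon (the proximal colon, by the methods) was hybridized to 1 Affymetrix Mouse Genome array per mouse. The 3 mutants carry loxP-flanked Hnf4α alleles and Cre recombinase under the villin promoter, which is active in intestinal epithelial cells, so that stroma, muscle and leukocytes of the mutants keep the gene. The 3 controls are labelled wildtype, and whether they carry Cre or loxP alleles is not given in the sources used here. All 6 mice were littermate individuals of 1 year of age, were kept free of pathogens and received ketamine and xylazine before sacrifice.

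Chemokines bind receptors with 7 membrane passes on leukocytes and are grouped by the spacing of their first cysteines into the CC, CXC, XC and CX3C families. Some are made at all times and keep lymphocytes in their usual places, as CCL28 and CCL25 of the gut epithelium do for plasma cells that make IgA and for gut T cells. Others are made on demand through NF-kappaB or interferons, as the CXC ligands that draw neutrophils into an inflamed colon are.

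Hnf4a itself fell at all 4 of its probe sets, with log2 fold changes from -2.26 to -1.48 (adjusted p from 0.000411 to 0.00977, limma). Their position against the removed exons was not analysed here. The labels give mutant replicates 2 and 3 as male and the other mice as female. The RNA that marks the inactive X chromosome, Xist, was at 9.94 to 10.96 in controls and 5.03 to 5.32 in mutants, and Y-linked genes were at 2.75 to 4.01 in controls and 5.35 to 8.12 in mutants. By these genes all controls were female and all mutants male, mutant replicate 1 included, so sex and genotype cannot be told apart in any value below. Markers of gut epithelium were bright in every array: 9 of 9 measured had a mean of at least 5, and their summed log2 signals were 110.81 to 111.51 in controls and 111.60 to 112.74 in mutants. An unadjusted p up to 0.05 was found for 4 of the 9 (44.4%), Krt18, Krt19 and Cdh1 higher and Krt20 lower in mutants, beside 16.2% of all genes, and 5 (55.6%) did not overlap between groups, beside 23.3%. Of 6 colon markers 5 were measured and none was near background, with Car4 lower in all mutants (log2 fold change -2.71, adjusted p = 0.00977, limma). Control replicate 3 and mutant replicate 1 had less of the surface colonocyte genes Aqp8 (8.32 and 9.09, beside 11.56 to 12.29 in the other arrays) and Slc26a3 (11.24 and 11.59, beside 12.45 to 12.81). Mutant replicate 2 stood apart in muscle and matrix RNA: the median difference of 8 smooth muscle markers from the control mean was -3.95 there, against -0.29 and -0.46 in mutant replicates 1 and 3.

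No ligand gene passed the test between mutants and controls by its chosen probe set (0 of 33 at an adjusted p under 0.05 over 45037 probe sets, limma), where 160 of the 18193 genes, 0.879%, did. Without mutant replicate 2 it was again 0 of 33, beside 0.528% of all genes. With an unadjusted p up to 0.05 there were 5 of 33 ligand genes (15.2%) by limma and 5 by SAM, the test named in the methods, beside 16.2% of all genes by limma. These were Ccl28, Cx3cl1, Cxcl16, Cxcl2 and Cxcl3. Without mutant replicate 2 there were 5 of 33, beside 11.9% of all genes, with Ccl11 and Cxcl12 in place of Cx3cl1 and Cxcl3. The count was 2 without control replicate 1, 1 without control replicate 3 and 3 without mutant replicate 3. The share of all genes was not computed for these settings. Over all probe sets, those called after adjustment fell there too, from 239 to 39, 92 and 52. The 3 mutants lay all above or all below the 3 controls for 7 ligand genes (21.2%), beside 23.3% of all genes. Each share of ligand genes set beside a share of all genes was near it.

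The exception was Ccl25, whose probe sets disagreed. Among the 51 probe sets of the ligand genes 1 was called, and it was lower in mutants, beside 0.226% of all probe sets called lower. It was also the 1 called without mutant replicate 2, beside 0.169% of all probe sets.

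**Figure D1:**
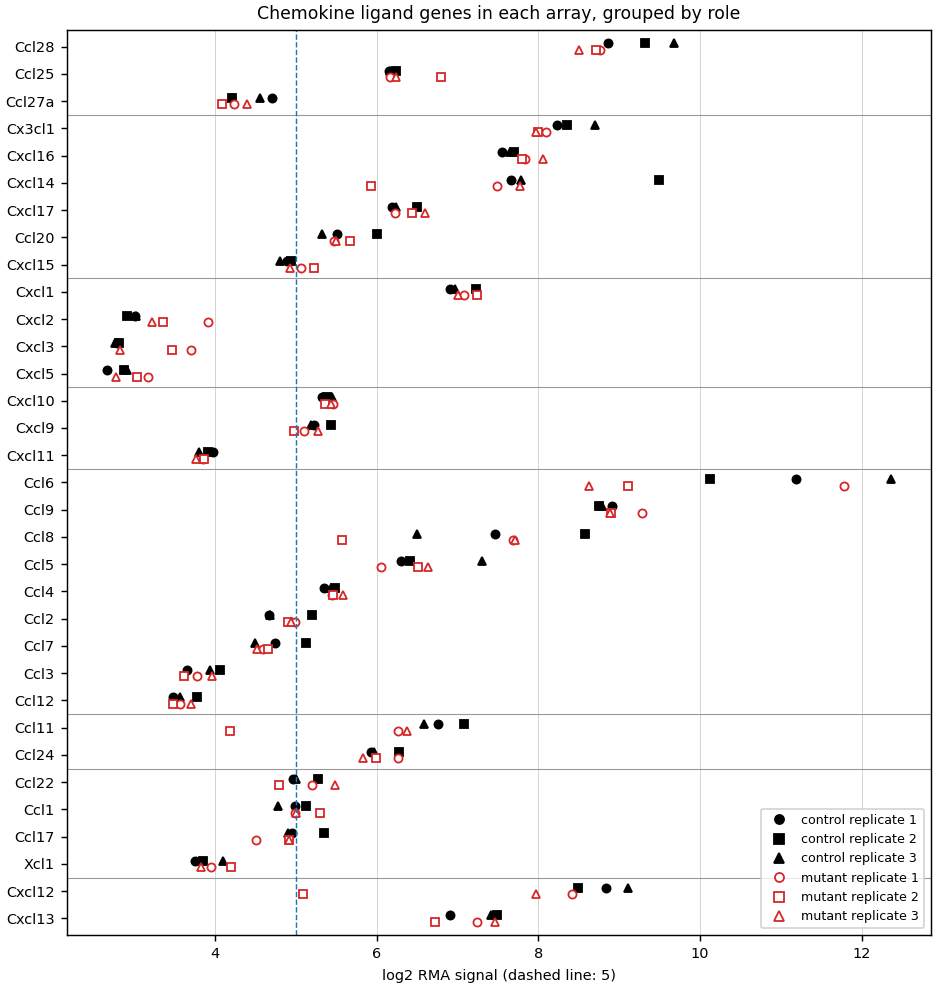
Log2 RMA signal (horizontal axis) of the chosen probe set of each of the 33 ligand genes (vertical axis, grouped by role between grey lines) in the 3 controls (filled symbols) and 3 mutants (open symbols); the dashed line marks 5, below which a gene's mean counts as near background. Cxcl12, Ccl11 and Cxcl14 have 1 mutant, replicate 2, far to the left, while Cxcl2, Cxcl3 and Cxcl5 lie at the low end of the scale.

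Near background, with a mean log2 signal under 5, were 12 of the 33 ligand genes: Ccl2, Ccl3, Ccl7, Ccl12, Ccl17, Ccl27a, Cxcl2, Cxcl3, Cxcl5, Cxcl11, Cxcl15 and Xcl1. Their means ranged from 2.90 to 4.97. The gene just above the threshold was Ccl1, at 5.03, and the one just under it was Cxcl15, at 4.97. The log2 fold change was above 0 for 15 of the 33 and below 0 for 18, and its median was -0.03 beside 0.05 over all genes. Without mutant replicate 2 the median was 0.01 beside 0.03. Both medians are close to 0.

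Ccl25 encodes a chemokine of the gut and thymus epithelium that draws lymphocytes with the receptor CCR9. Its brightest probe set, designed on an expressed sequence tag, had log2 signals of 6.15, 6.23 and 6.17 in control replicates 1, 2 and 3 and of 6.16, 6.79 and 6.24 in mutant replicates 1, 2 and 3. The groups overlapped there, and the log2 fold change was 0.22 (SE 0.17, adjusted p = 0.617, limma) and 0.02 without mutant replicate 2. Its other probe set, designed on the RefSeq mRNA of Ccl25, had 6.94, 7.30 and 7.04 in controls and 4.84, 5.44 and 4.91 in mutants. Every mutant lay well below every control, with group means of 7.09 ± 0.19 and 5.06 ± 0.32 (SD, n = 3 each). At this probe set Ccl25 fell by 2.03 on the log2 scale (SE 0.18, adjusted p = 0.0112, limma), a 4.08-fold lower signal in mutants. The fall was as large when mutant replicate 2, with its little muscle RNA, was left out (log2 fold change -2.21, adjusted p = 0.00482). The call was lost without control replicate 1 (-2.11, adjusted p = 0.0706) and without mutant replicate 3 (-1.95, adjusted p = 0.0633), while the size stayed between -2.21 and -1.92 with any 1 array left out. This probe set was singled out after its values were seen. Its mean over the 6 arrays, 6.08, is slightly under that of the other, 6.29, which is why the rule passed it over. Which transcript each probe set reads was not analysed here, since probe sequences were not used.

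**Figure D2:**
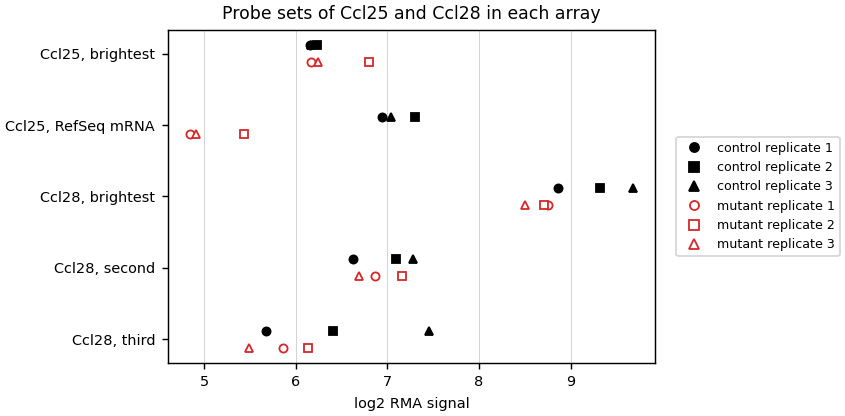
Log2 RMA signal (horizontal axis) of the 2 probe sets of Ccl25 and the 3 of Ccl28 (vertical axis) in the 3 controls (filled symbols) and 3 mutants (open symbols). At the RefSeq mRNA probe set of Ccl25 the mutants lie at 4.84 to 5.44 and the controls at 6.94 to 7.30, whereas at its brightest probe set both groups lie at 6.15 to 6.79.

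RefSeq places 2 transcription starts of Ccl25 on the forward strand of chromosome 8 in the mouse build GRCm38.p6, 24378 bases apart, and both are printed because the probe sets of this gene disagreed. Each window holds the 250 bases before the start and the first 20 bases of the first exon, chr8:4324960-4325229 for the upstream start and chr8:4349338-4349607 for the downstream start. Capitals mark a match of the NF-kappaB motif GGNNNTTCC.
Ccl25 upstream start: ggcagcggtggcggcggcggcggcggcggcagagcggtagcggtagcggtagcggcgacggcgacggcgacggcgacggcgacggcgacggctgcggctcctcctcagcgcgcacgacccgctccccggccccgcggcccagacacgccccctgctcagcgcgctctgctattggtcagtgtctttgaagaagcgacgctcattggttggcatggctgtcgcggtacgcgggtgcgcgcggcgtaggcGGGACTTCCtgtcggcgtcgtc
Ccl25 downstream start: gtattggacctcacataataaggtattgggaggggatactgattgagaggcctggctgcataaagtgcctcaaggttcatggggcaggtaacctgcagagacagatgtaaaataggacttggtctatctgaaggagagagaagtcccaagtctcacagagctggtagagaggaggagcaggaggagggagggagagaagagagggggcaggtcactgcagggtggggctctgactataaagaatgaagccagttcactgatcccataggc
The upstream window was rich in G and C (74.1%) and held 1 match across its start, from base -2 to base 6, while the downstream window (51.5%) held none. Neither held the HNF4 motif searched, CAAAGTCC. A match is a run of letters and not a measured site, and no match says only that these letters are not in the window.

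Promoter windows of equal length around the transcription start, from RefSeq, matched 23 of the 33 ligand genes, with 26 windows. Ccl2, Ccl4, Ccl5, Ccl7, Ccl11, Ccl24, Cxcl5, Cxcl11, Cxcl16 and Cxcl17 had no entry. On either strand, CAAAGTCC was found in 1 of the 26 windows, that of Cxcl1 (from base -175 to base -168), beside 1.42% of all 32851 windows. GGNNNTTCC was in 11 (42.3%), beside 18.5%, in Ccl1, Ccl9, Ccl12, Ccl20, Ccl25, Cx3cl1, Cxcl1, Cxcl2, Cxcl3, Cxcl9 and Cxcl10. The interferon response motif GAAANNGAA was in 5 (19.2%), beside 8.56%, in Ccl1, Ccl3, Cxcl9, Cxcl10 and Cxcl14. A place that matches on both strands was counted once.

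Ccl28 encodes the colon's main ligand for the receptor CCR10, by which plasma cells that make IgA reach the mucosa. At its chosen probe set the log2 signal was 8.86, 9.32 and 9.68 in controls and 8.76, 8.71 and 8.50 in mutants. All mutants lay below all controls, with mutant replicate 1 close under control replicate 1. Their log2 fold change was -0.63 (SE 0.21, adjusted p = 0.288, limma) and -0.66 without mutant replicate 2. The other 2 probe sets of Ccl28 overlapped between groups, with log2 fold changes of -0.09 and -0.68. Ccl27a, a skin ligand of the same receptor, was near background at the probe set that names it alone. Of the 3 measured ligands for mucosal homing, 1 had a positive and 2 a negative log2 fold change by the chosen probe sets.

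Receptors of these ligands were dim or overlapped. Ccr9, for CCL25, was near background at all 5 of its probe sets, with means of 3.48 to 4.07. Ccr10, for CCL28, had log2 signals of 5.81, 7.02 and 6.10 in controls and 5.99, 5.65 and 5.89 in mutants (log2 fold change -0.47, adjusted p = 0.531, limma). Plasma cells carry that receptor, and their markers were lower in every mutant. All 5 of 5 plasma cell markers (Jchain, Mzb1, Tnfrsf17, Derl3 and Pou2af1) had an unadjusted p up to 0.05 and no overlap between groups, beside 16.2% and 23.3% of all genes, though none passed the adjusted test. Their median log2 fold change was -2.02, and -1.17 without mutant replicate 2. Their summed log2 signals were 39.30 to 46.36 in controls and 30.39 to 37.50 in mutants. Jchain, which joins IgA molecules into dimers, had 12.60, 13.18 and 13.10 in controls and 11.75, 8.91 and 11.96 in mutants (log2 fold change -2.09, adjusted p = 0.335, limma). The groups were barely apart for Pou2af1 (5.89 in control replicate 1, 5.83 in mutant replicate 3) and Derl3 (7.22 and 7.16 in the same arrays). Fewer cells of a type and less RNA per cell cannot be told apart in whole tissue, here or for any other marker list. Whether these markers have any part in the values of Ccl25 and Ccl28 was not tested. B cell markers did not move as one: 6 of 7 were measured, 2 near background, 3 higher and 3 lower, with 2 of 6 (33.3%), Cd79a and Cd79b, lower at an unadjusted p up to 0.05 beside 16.2% of all genes, and their summed log2 signals overlapped (29.31 to 32.94 in controls, 29.80 to 30.28 in mutants).

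Cx3cl1 encodes fractalkine, a membrane-anchored ligand of epithelium and endothelium for the macrophage receptor CX3CR1. Its log2 signal was 8.23, 8.35 and 8.70 in controls and 8.10, 7.996 and 7.98 in mutants. The mutants lay just below the controls, with a log2 fold change of -0.40 (SE 0.14, adjusted p = 0.308, limma), and of -0.27 without control replicate 3. The 3 other probe sets of the gene overlapped between groups, with log2 fold changes of -0.30, -0.22 and -0.21. Cxcl16 encodes the other membrane-anchored ligand, for CXCR6 on T cells and innate lymphoid cells. It had 7.55, 7.70 and 7.65 in controls and 7.83, 7.80 and 8.05 in mutants, all mutants above all controls. The difference in log2 signal was 0.26 (SE 0.11, adjusted p = 0.378, limma), and 0.18 at its other probe set, where the groups overlapped. The pair of membrane-anchored ligands thus had log2 fold changes of opposite sign, and the difference between them was not tested. Their receptor genes had means of 5.98 (Cx3cr1) and 4.39 (Cxcr6, near background), with log2 fold changes of -0.32 and -0.30 and no call.

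The other epithelial ligands showed little difference beyond the spread between mice. Ccl20, which draws cells with CCR6 to lymphoid follicles, averaged 5.61 ± 0.36 in controls and 5.55 ± 0.11 in mutants (SD, n = 3 each; log2 fold change -0.07). Cxcl17, a ligand of mucosal surfaces, averaged 6.31 ± 0.16 and 6.42 ± 0.19 (log2 fold change 0.11). Cxcl14, made by epithelium and fibroblasts, is described with the stromal ligands. Cxcl15, known from the lung, was near background. Of the 6 genes in this group 3 were higher and 3 lower by log2 fold change, whose median was 0.02.

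CXCL1, CXCL2, CXCL3 and CXCL5 bind CXCR2 and draw neutrophils. The log2 fold change was above 0 for all 4 of their genes (median 0.34, and 0.32 without mutant replicate 2), and 3 of the 4 were near background in both groups. Cxcl2 had log2 signals of 3.01, 2.91 and 3.03 in controls and 3.91, 3.36 and 3.22 in mutants. Cxcl3 had 2.78, 2.80 and 2.76 in controls and 3.71, 3.46 and 2.83 in mutants. For both genes every mutant lay above every control, with mutant replicate 1 the highest. The log2 fold changes were 0.51 for Cxcl2 (SE 0.18, adjusted p = 0.323, limma) and 0.55 for Cxcl3 (SE 0.22, adjusted p = 0.359, limma). Without mutant replicate 1 they were 0.30 for Cxcl2 and 0.36 for Cxcl3. Near background a log2 fold change can understate a change in RNA or reflect noise, and detection of these transcripts was not tested. Cxcl5 overlapped between groups, with a log2 fold change of 0.18.

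The probe sets of Cxcl1 had different signal levels and log2 fold changes of the same sign. Its brightest averaged 7.04 ± 0.17 in controls and 7.11 ± 0.12 in mutants (SD, n = 3 each), a log2 fold change of 0.08 (SE 0.12, adjusted p = 0.808, limma). A second overlapped between groups too, with a mean of 6.45 and a log2 fold change of 0.125. The third, designed on the RefSeq mRNA of Cxcl1, had 3.30, 3.26 and 3.34 in controls and 3.81, 3.54 and 3.48 in mutants. All mutants lay above all controls at this near-background level, as for Cxcl2 and Cxcl3, with a log2 fold change of 0.31 (SE 0.12, adjusted p = 0.335, limma). This probe set too was singled out after its values were seen. Ppbp, another CXCR2 ligand under an older symbol, was near background with a mean of 3.61 and a log2 fold change of 0.22.

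The promoters of Cxcl1, Cxcl2 and Cxcl3 are printed because these 3 genes lie near each other on chromosome 5, had the same sign, and each held the NF-kappaB motif more than once. Cxcl9 and Cxcl10, also on chromosome 5, held it more than once too, with log2 fold changes of -0.16 and 0.03. The part of this motif in any of these values was not tested. The printed windows are chr5:90891125-90891224 for Cxcl1, chr5:90903779-90903878 for Cxcl2 and chr5:90785981-90786080 for Cxcl3 (GRCm38.p6, forward strand, RefSeq). Each runs over 100 bases and begins 120 bases before the annotated start. Capitals mark GGNNNTTCC on either strand.
Cxcl1: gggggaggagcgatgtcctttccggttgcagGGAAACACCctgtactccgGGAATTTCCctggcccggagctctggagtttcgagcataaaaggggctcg
Cxcl2: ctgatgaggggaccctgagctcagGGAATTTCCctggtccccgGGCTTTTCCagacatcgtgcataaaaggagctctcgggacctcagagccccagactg
Cxcl3: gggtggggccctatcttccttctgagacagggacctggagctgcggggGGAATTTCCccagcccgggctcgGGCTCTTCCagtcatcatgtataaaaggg
The 3 windows share the run GGAATTTCC, which matches on both strands, at bases -70 to -62 in Cxcl1, -96 to -88 in Cxcl2 and -72 to -64 in Cxcl3.

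Neutrophil markers stayed dim beside these ligands. Of 11 listed 9 were measured, 5 near background, and 8 were higher and 1 lower by log2 fold change (median 0.16), with no call. Their summed log2 signals were 42.49 to 44.74 in controls and 44.62 to 45.93 in mutants. S100a8, a calcium-binding protein abundant in neutrophils, had 3.97, 4.31 and 3.79 in controls and 4.91, 4.46 and 4.37 in mutants (log2 fold change 0.56, adjusted p = 0.306, limma). Cxcr2, the receptor, was near background with a mean of 4.25. The part of neutrophils in the values of Cxcl2 and Cxcl3 was not tested.

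Ligands induced by interferons, which draw T cells with CXCR3, overlapped between groups. Cxcl10 averaged 5.39 ± 0.07 in controls and 5.42 ± 0.05 in mutants (SD, n = 3 each), a log2 fold change of 0.03 with a 95% interval from -0.18 to 0.24. Cxcl9 averaged 5.28 ± 0.14 and 5.12 ± 0.15, a log2 fold change of -0.16, and Cxcl11 was near background. The median of the 3 was -0.07. T cell markers (8 of 10 measured, 4 near background) were split into 2 higher and 6 lower (median log2 fold change -0.16), with summed log2 signals of 42.98 to 44.51 in controls and 41.35 to 43.54 in mutants. Dendritic cell markers (5 of 6 measured, 1 near background) had a median of -0.07 and sums of 28.06 to 29.57 in controls and 27.88 to 29.05 in mutants.

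**Figure D3:**
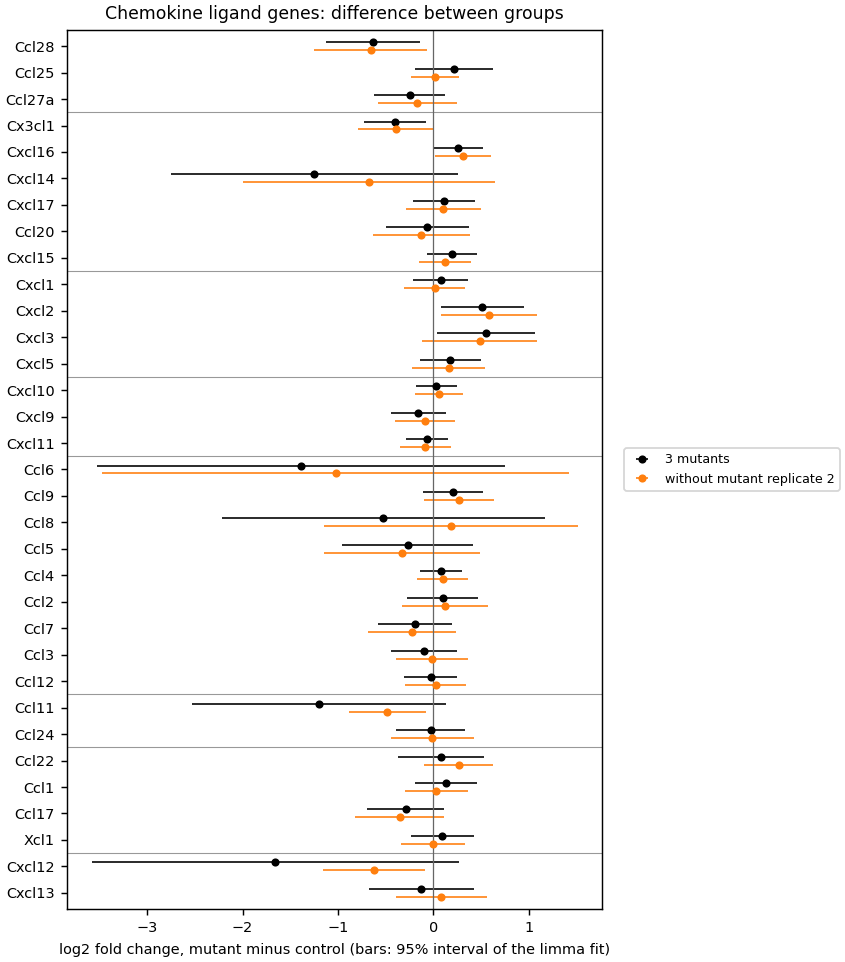
Log2 fold change, mutant minus control (horizontal axis), of the 33 ligand genes (vertical axis, grouped by role) with all arrays (black) and without mutant replicate 2 (orange); bars are 95% intervals of the limma fit. Leaving that array out moves Cxcl12 from -1.66 to -0.62 and Ccl11 from -1.20 to -0.49, while Cxcl10 stays near 0 with a short interval.

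Monocyte and macrophage ligands differed more between single mice than between groups. Ccl6, a rodent ligand for CCR1, had log2 signals of 11.19, 10.12 and 12.37 in controls and 11.78, 9.10 and 8.62 in mutants. Mutant replicates 2 and 3 lay below every control and mutant replicate 1 among them. The highest signals were in control replicate 3 and mutant replicate 1, the arrays low in Aqp8 and Slc26a3, whose part in the values of Ccl6 was not tested. Between the groups the log2 fold change was -1.39 (SE 0.90, adjusted p = 0.537, limma), and the second probe set of Ccl6 had -1.30. Ccl9, the related ligand, averaged 8.81 ± 0.08 in controls and 9.02 ± 0.23 in mutants (SD, n = 3 each; log2 fold change 0.21), so these 2 CCR1 ligands had log2 fold changes of opposite sign, a difference that was not tested. Ccl8 averaged 7.51 ± 1.04 and 6.99 ± 1.23 (log2 fold change -0.52). Ccl5, made by T cells, averaged 6.67 ± 0.55 and 6.40 ± 0.31 (log2 fold change -0.27). Ccl4, made by activated macrophages and lymphocytes, averaged 5.42 ± 0.07 and 5.496 ± 0.08 (log2 fold change 0.08). The CCR2 ligands Ccl2, Ccl7 and Ccl12, which call monocytes out of the blood, were all near background, as was Ccl3. Of the 9 genes in this group 3 were higher and 6 lower by log2 fold change, whose median was -0.10, and 0.02 without mutant replicate 2.

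Macrophage and monocyte markers were split. Of 9 measured of 10 listed, none near background, 4 were higher and 5 lower by log2 fold change, and their summed log2 signals were 64.68 to 67.21 in controls and 66.03, 55.63 and 67.02 in mutant replicates 1, 2 and 3. Cd68, a lysosomal protein of macrophages, had 5.95, 7.01 and 5.81 in controls and 7.29, 7.63 and 7.69 in mutants, all mutants above all controls (log2 fold change 1.28, adjusted p = 0.174, limma). Cd14, the receptor for bacterial lipopolysaccharide, had a log2 fold change of 0.56 (adjusted p = 0.236, limma). Neither passed the test, and these were the 2 of 9 (22.2%) with an unadjusted p up to 0.05, beside 16.2% of all genes. The 5 lower markers were Lyz2, Mpeg1, Csf1r, Mrc1 and Adgre1, with log2 fold changes of -1.24, -1.18, -1.16, -0.93 and -0.43. For each of these mutant replicate 2 was the lowest array. The median of the 9 was -0.43, and -0.16 without mutant replicate 2. The groups did not overlap for 4 of 9 (44.4%), 3 above and 1 below the controls, beside 23.3% of all genes.

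Eosinophil ligands were Ccl11 and Ccl24, which bind CCR3. Ccl11, eotaxin of the gut stroma, had log2 signals of 6.76, 7.08 and 6.58 in controls and 6.27, 4.18 and 6.37 in mutants. All mutants lay below all controls, with mutant replicate 2 far below the others. The log2 fold change was -1.20 (SE 0.56, adjusted p = 0.423, limma) and -0.49 without mutant replicate 2 (adjusted p = 0.434). Ccl24, made by macrophages, averaged 6.06 ± 0.19 in controls and 6.03 ± 0.22 in mutants (SD, n = 3 each; log2 fold change -0.03). Among 8 eosinophil and mast cell markers, 5 near background, 4 were higher and 4 lower by log2 fold change. Their summed log2 signals were 36.37 to 39.97 in controls and 37.04 to 39.67 in mutants. Siglecf, an eosinophil surface lectin, was lower in every mutant at a near-background level (log2 fold change -0.95, adjusted p = 0.122, limma).

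Of the 4 ligands for CCR4, CCR8 and XCR1 on T cells and dendritic cells, 2 were near background, Ccl17 and Xcl1. Ccl22, which draws regulatory T cells, averaged 5.08 ± 0.17 in controls and 5.16 ± 0.35 in mutants (SD, n = 3 each; log2 fold change 0.08). Ccl1 averaged 4.96 ± 0.18 and 5.09 ± 0.18 (log2 fold change 0.13). By log2 fold change 3 of the 4 genes were higher and 1 lower.

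Cxcl12, the fibroblast and endothelial ligand for CXCR4 that holds leukocytes and plasma cells in tissue, had log2 signals of 8.84, 8.49 and 9.11 in controls and 8.41, 5.08 and 7.97 in mutants. All mutants lay below all controls, with replicate 1 close under the lowest control and replicate 2 far below the rest. The difference on the log2 scale was -1.66 (SE 0.81, adjusted p = 0.439, limma), and -0.62 without mutant replicate 2 (adjusted p = 0.451). A second probe set, designed on the RefSeq mRNA, had 7.11, 6.53 and 7.56 in controls and 6.73, 4.57 and 6.75 in mutants, so the groups overlapped. The log2 fold change there was -1.05, and -0.33 without mutant replicate 2. The third, with signals of 5.16 to 5.37 in all arrays, overlapped too and had 0.10. Cxcl13, which gathers B cells in follicles through CXCR5, averaged 7.27 ± 0.31 in controls and 7.14 ± 0.38 in mutants (SD, n = 3 each; log2 fold change -0.13).

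Cxcl14 had log2 signals of 7.66, 9.49 and 7.79 in controls and 7.49, 5.93 and 7.78 in mutants. Control replicate 2 was the highest and mutant replicate 2 the lowest, and the other mice of both groups lay together at 7.49 to 7.79. The log2 fold change was -1.25 (SE 0.63, adjusted p = 0.453, limma) and -0.68 without mutant replicate 2. Ccl8 was also lowest in mutant replicate 2, at 5.57, and without that array its log2 fold change turned from -0.52 to 0.18. The probe set of the Ccl21 cluster, ligands of lymphatic vessels for CCR7, had 8.44, 8.42 and 8.70 in controls and 8.55, 6.49 and 8.37 in mutants (log2 fold change -0.72, and -0.06 without mutant replicate 2). That of the Ccl19 cluster had a mean of 5.22 and a log2 fold change of 0.06. Those of the Ccl27 cluster had means of 6.07 and 5.62, not near background, and log2 fold changes of -0.06 and -0.14.

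Stromal markers were low in the same array as these ligands. Relative to the control mean, 8 markers of fibroblasts and matrix had medians of 0.05, -3.27 and -0.41 in mutant replicates 1, 2 and 3, and those of 7 endothelial and lymphatic markers were -0.23, -1.49 and -0.50. Summed log2 signals of the smooth muscle list were 90.61 to 91.50 in controls and 88.90, 60.99 and 87.24 in mutant replicates 1, 2 and 3. Those of the fibroblast and matrix list were 74.28 to 76.40 in controls and 74.94, 51.24 and 72.20 in the mutants. For endothelium and lymphatics they were 45.64 to 46.49 in controls and 43.89, 34.28 and 43.21 in the mutants. All 8 smooth muscle, 8 matrix and 7 endothelial markers had a log2 fold change below 0, none was called, and 1 of the endothelial markers was near background. Beside 16.2% of all genes, an unadjusted p up to 0.05 was found for 0 of 8 smooth muscle markers, for 2 of 8 of the matrix (25%), Dcn and Fbln1, and for 2 of 7 of the endothelium (28.6%), Pecam1 and Tek. All mutants lay below all controls for 7 of 8 smooth muscle (87.5%), 2 of 8 matrix (25%) and 4 of 7 endothelial markers (57.1%). Over all genes 23.3% did not overlap. Without mutant replicate 2 an unadjusted p up to 0.05 was found for 5 of 8 (62.5%), 2 of 8 (25%) and 4 of 7 (57.1%), beside 11.9% of all genes. The part of stromal content in the values of Cxcl12, Ccl11, Cxcl14, Ccl8 and the Ccl21 cluster was not tested, and their values without mutant replicate 2 are given above. Exocrine pancreas markers (3 of 5 measured, 2 near background) had sums of 15.66 to 16.74 in controls and 16.36 to 16.69 in mutants.

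**Figure D4:**
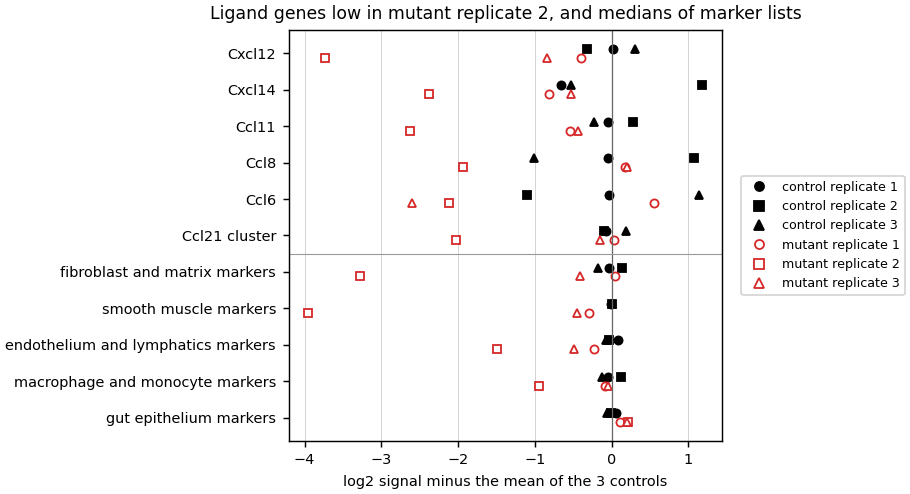
Difference of the log2 signal from the control mean (horizontal axis) for 6 ligand genes or clusters (top) and for the medians of 5 marker lists (bottom) in controls (filled symbols) and mutants (open symbols). Mutant replicate 2 is the lowest mutant for Cxcl12, Cxcl14, Ccl11, Ccl8 and the Ccl21 cluster and for the fibroblast, smooth muscle, endothelium and macrophage lists, but not for Ccl6 or gut epithelium.

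Among chemokine receptors 22 of 24 were measured, 10 of them near background. None passed the test, and 7 were higher and 15 lower by log2 fold change (median -0.11, and -0.04 without mutant replicate 2). An unadjusted p up to 0.05 was found for 2 of 22 (9.09%), fewer by share than the 16.2% of all genes, and the groups did not overlap for 6 (27.3%), beside 23.3%. Of the 6, Ccr1l1 (near background, mean 3.79) had the mutants above the controls. Cxcr4 (near background, mean 4.59), Cx3cr1, Ackr1, Ackr3 and Ackr4 had the mutants below. The 2 with an unadjusted p up to 0.05 were Cxcr4 and Ackr3, which both bind CXCL12. Cxcr4 had log2 signals of 4.77, 5.07 and 4.89 in controls and 4.65, 3.84 and 4.33 in mutants (log2 fold change -0.64, adjusted p = 0.284, limma). Ackr3, a scavenger of CXCL12, had 7.52, 7.80 and 7.08 in controls and 6.68, 4.78 and 6.97 in mutants (log2 fold change -1.32, adjusted p = 0.382, limma). For both genes all mutants lay below all controls and mutant replicate 2 was the lowest, as for Cxcl12 at its chosen probe set only. Without that array the log2 fold changes were -0.42 and -0.64. All 5 atypical and scavenging receptors had a log2 fold change below 0 (median -0.28, and -0.22 without mutant replicate 2).

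**Figure D5:**
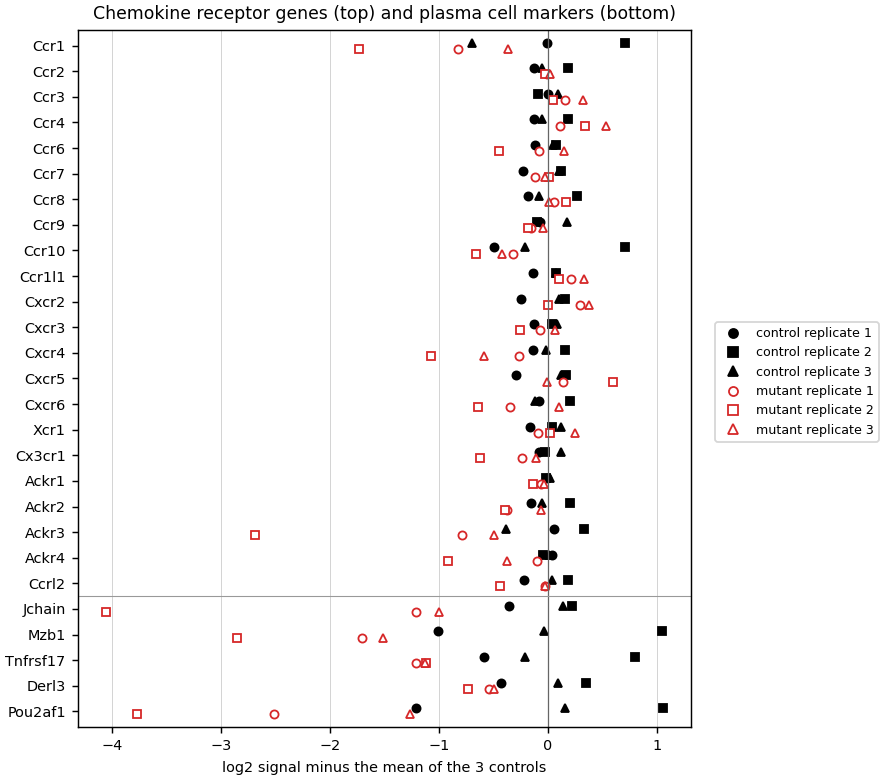
Difference of the log2 signal from the control mean (horizontal axis) for 22 chemokine receptor genes (top) and 5 plasma cell markers (bottom) in controls (filled symbols) and mutants (open symbols). Ackr3, Cxcr4, Ackr4, Cx3cr1, Ackr1 and all plasma cell markers lie to the left of every control in all mutants. Ccr1, Ccr10, Ackr2, Ccr9 and Ccrl2 lie left of 0 in all mutants but overlap the controls. Of the other receptors most scatter around 0 in both groups.

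Cytokines that induce chemokines were mostly dim. Of 25 listed 23 were measured and 16 were near background, and none passed the test, with 16 higher and 7 lower by log2 fold change. For 2 of 23 (8.70%) the unadjusted p was up to 0.05, a smaller share than the 16.2% of all genes. Il18, an epithelial cytokine of the interleukin-1 family, had log2 signals of 9.32, 9.41 and 8.74 in controls and 9.85, 10.45 and 10.20 in mutants, all mutants above all controls (log2 fold change 1.01, SE 0.22, adjusted p = 0.139, limma). Ltb, which maintains lymphoid tissue, had 5.83, 5.81 and 5.80 in controls and 5.52, 5.44 and 5.72 in mutants (log2 fold change -0.25, adjusted p = 0.376, limma). Il1b and Tnf, inducers of Cxcl1 and Cxcl2 through NF-kappaB, had log2 fold changes of 0.40 (adjusted p = 0.487, limma) and 0.21 (adjusted p = 0.497, limma). With 3 mice per group the spread between mice limits what could be called: the 95% interval of Cxcl12 ran from -3.58 to 0.27 on the log2 scale, whereas that of Cxcl10 ran from -0.18 to 0.24.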

How the data were processed

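RNA of the colon of 3 controls and 3 Hnf4α mutants was measured on Affymetrix Mouse Genome arrays, 1 per mouse. The authors processed the arrays together by RMA, and the deposited values are log2 signals, used as they stand; scanner files were not used here. Of 45101 probe sets 64 controls were left out, and 45037 were tested with limma 3.58.1 (R 4.3.3; lmFit, eBayes, mutant minus control, no covariate), with Benjamini-Hochberg adjustment over all of them and a threshold of 0.05. The test was checked on simulated data with independent noise in each probe set and array. No simulated array stood apart as mutant replicate 2 did, so the check does not cover that. Probe sets were named from the platform annotation: 34945 have 1 symbol, 932 several and 9160 none. Array medians were 5.43 to 5.53 and correlations between arrays 0.9615 to 0.9921; arrays have no read depth, and their number limits the precision. An exact permutation test of 3 against 3 gives no two-sided p under 0.1, so none was run.

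Ligand genes with an unadjusted p of 0.05 or less, or with a mean of at least 5 and no overlap between groups, were described in every array, and those with a mean of at least 5 by their group means. Other genes were named at an unadjusted p of 0.05 or less. The ligand genes, their roles and the lists of receptors, cytokines and cell type markers were chosen with earlier results of these data known. Alternatives were each array left out, array weights, a variance trend with robust fitting, the replicate number as a block, a minimum mean of 5, median centring, SAM, X and Y genes left out, probe sets with several symbols, the mean of a gene's probe sets and, chosen after the data were seen, the probe set with a RefSeq mRNA accession.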

Additional observations from a re-analysis of the deposited data

How the results depend on the processing

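None of the 33 ligand genes was called higher under any of the 16 alternatives, of which SAM could give no call, as explained below. Under 1 of them 1 gene was called lower. This was Ccl25, when each gene was read from its probe set with a RefSeq mRNA accession, an alternative chosen after the data were seen. The log2 fold change of Ccl25 then turned from 0.22 to -2.03, and it was -0.91 (adjusted p = 0.067, limma) with the mean of its probe sets; the probe sets differ, and the cause was not tested. With 1 array left out, its RefSeq probe set ranged from -2.21 to -1.92, the count of ligand genes at an unadjusted p of 0.05 or less from 1 to 6, and their median log2 fold change from -0.0921 to 0.0565. That count was 2 with probe sets of a mean of at least 5 only, where fewer genes were tested, and 3 with the mean of all probe sets. The share of all genes was not computed for these alternatives, nor for arrays left out other than mutant replicate 2. The median was 0.0331 with array weights, -0.0659 with a mean of at least 5, 0.0041 with arrays centred on their medians and -0.0659 with RefSeq probe sets.

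Deviations from the group means had correlations of -0.025, 0.252 and -0.15 between replicates of the same number, 1, 2 and 3. Between replicates of different number they ran from -0.292 to 0.381. With 3 arrays per group these values cannot tell whether the numbers paired the mice. With the replicate number as a block, 62 probe sets were called in place of 239, and the RefSeq probe set of Ccl25 was among them (-2.03, adjusted p = 0.0139, limma); no ligand gene was called by its chosen probe set. SAM could call no probe set after adjustment, whatever the data. Its p-values come from all assignments of the arrays to groups, the observed one included, so no adjusted p can fall under 0.1. At an unadjusted p of 0.05 or less SAM gave 2828 genes.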
